A study of Mus musculus with 9 samples.

Results

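Glia from SOD1-G93A mouse pups were set against both control groups of the study at once, and the probes described are those on which the mutant cultures lay apart from every control culture. The 3 SOD1-G93A arrays were compared with 6 control arrays, 3 from SOD1-WT and 3 from nontransgenic pups, so that all 9 arrays of the series entered. A probe was kept where its detection p-value, which measures whether its signal exceeds that of negative control beads, was below 0.01 on at least 3 of the 9 arrays, as 13972 of 24613 probes were. Of these, 909 (6.51%) had all 3 mutant arrays above, or all 3 below, all 6 control arrays, and they are called outside the controls here. Of these 491 (3.51%) lay above and 418 (2.99%) below. The order of the 9 arrays chose these probes, so folds and tests of the same values describe them and are not independent support.

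The cultures were primary glia from pups on postnatal days 1 to 3, grown to confluence after the meninges had been stripped away and the tissue dissociated with trypsin. SOD1-G93A pups are labelled B6SJL-Tg(SOD1*G93A)2Gur/J and carry a mutant form of human SOD1, the enzyme superoxide dismutase, found in familial amyotrophic lateral sclerosis (ALS). SOD1-WT pups are labelled B6SJL-Tg(SOD1)2Gur/J and carry the normal human protein, and nontransgenic pups are labelled B6SJL 2Gur/J. Each group had 3 biological replicates, total RNA was amplified by 1 round of T7 transcription, and mRNA was read on an Illumina mouse BeadArray, on which a probe's intensity is a relative level. The promoter and copy number of the transgenes, the litters, the sex of the pups and the part of the nervous system dissected are not given in the sources used here. Each transgenic group stands for 1 line. If replicates share a litter or a culture, the p-values below measure a spread that is partly technical.

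Glia are the non-neuronal cells of nervous tissue, and cultures of this kind usually consist for the most part of astrocytes, with some microglia and oligodendrocyte precursors. In ALS, motor neurons die, and glia that carry mutant SOD1 are known to harm motor neurons in culture. The series title asks which genes may take part in that toxicity. Setting the mutant against both controls asks which transcripts differ both from glia without a transgene and from glia that make the normal human enzyme.

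The 9 arrays detected 13107 to 13618 probes each (53.3% to 55.3%). Precision is limited by having 3 arrays in each group. Mean raw signal lay between 211.3 and 235.7 on 8 arrays and at 279.6 on SOD1-WT replicate 3, whose median bead standard error was also the largest, at 6.84% of the signal against 5.08% to 5.23%. Mouse Sod1 differed by 0.01 on the log2 scale between SOD1-G93A glia and the mean of the control groups (limma adjusted p = 0.985), and its probe may not detect the human transgenes. The Y-linked gene Kdm5d was detected on 0 of 3 SOD1-G93A, 3 of 3 SOD1-WT and 0 of 3 nontransgenic arrays, and Eif2s3y on 0, 2 and 0. Uty, also Y-linked, was detected on 0 arrays of each group. Of the 2 kept probes of chromosome Y, 1 differed between SOD1-WT and nontransgenic glia. The signal of Kdm5d and Eif2s3y came with the SOD1-WT group alone, and its part in differences from SOD1-WT glia was not tested. Of the 14 measured astrocyte markers 1 rose, 1 fell and 12 did not pass the test, where 3.83% of all kept genes rose and 4.64% fell. Gfap, the astrocyte filament protein, was among the 12 (0.27, limma adjusted p = 0.295). By single control, Gfap was 0.76 higher than in nontransgenic glia (adjusted p = 0.00441) and differed by -0.22 from SOD1-WT glia (adjusted p = 0.401).

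The control groups differed more from each other than either did from the mutant. At an adjusted p of 0.05 in limma, 3539 kept probes (25.3%) differed between SOD1-WT and nontransgenic glia, 1487 (10.6%) between SOD1-G93A and nontransgenic glia and 2102 (15.0%) between SOD1-G93A and SOD1-WT glia. Correlations of all kept probes between arrays were 0.971 to 0.979 for SOD1-G93A with SOD1-WT, 0.979 to 0.985 for SOD1-G93A with nontransgenic and 0.954 to 0.968 for SOD1-WT with nontransgenic glia. Fewer probes set the mutant outside the other 6 arrays (909) than set SOD1-WT (2841, 20.3%) or nontransgenic glia (2376, 17%) outside theirs.

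Against the mean of both control groups, 1083 probes (7.75%) passed the test, 502 higher (3.59%) and 581 lower (4.16%) in SOD1-G93A glia. That contrast alone does not separate the mutant from both controls, since for 273 of the 1083 the mutant mean lay between the control means, and 547 had arrays that overlapped a control array. With the 6 controls taken as 1 group, so that the distance between control groups counted as spread, 141 probes passed. A stricter class, called set apart below, holds the 294 probes (2.10%) outside all controls that also passed against each control group and against their mean in the same direction. In mutant glia 154 of them (1.10%) were higher and 140 (1.00%) lower. At gene level, by the kept probe with the highest mean, 834 of 9842 genes (8.47%) passed against the mean of the controls and 219 (2.23%) were set apart. In all 39 probes differed at least 2-fold from both controls, 14 higher and 25 lower. The number set apart was 188 without SOD1-G93A replicate 1 and 189 without replicate 3 of that group.

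Most of the 909 probes differed little. The median size of their log2 difference was 0.38 (quartiles 0.26 and 0.59), against 0.10 over all kept probes. The median gap between the nearest mutant and control arrays was 0.08, with 71 probes over 0.5 and 25 over 1. Bbs5 and Spns1 lay just inside the rule, with gaps of 0.00059 and 0.00094, while Eef1a1 and Atp5b, with a tie at 0, lay just outside it. On 761 of the 909 probes all 9 arrays were detected, on 12 no control array was, and on 51 no mutant array was. Over all 13972 kept probes, 12 had no control array detected and 291 had no mutant array detected. The filter asked for detection on at least 3 arrays. A probe undetected in the mutant could meet it on any 3 of the 6 controls, one undetected in the controls only on all 3 mutant arrays. The counts of 12 and 51 therefore cannot show whether more transcripts were lost than gained in mutant glia. Where no array of a group was detected, a fold is given below as a bound against the dimmest detected probe of each such array. Unless a single control group is named, the bound is between the mutant and the mean of both control groups.

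**Figure D1:**
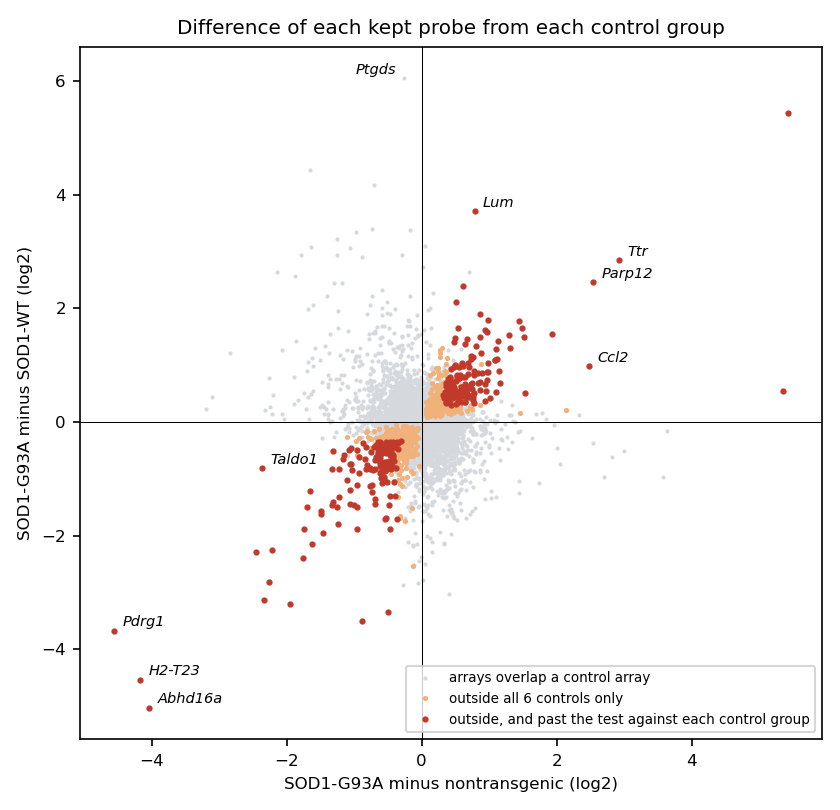
Log2 difference of SOD1-G93A from nontransgenic glia (horizontal) and from SOD1-WT glia (vertical) for each of the 13972 kept probes. Probes set apart from both controls are red, other probes outside all 6 controls pale orange and the rest grey. Red probes lie at the lower left, with H2-T23, Abhd16a and Pdrg1 farthest out, and at the upper right, while Ptgds differed from SOD1-WT glia by 6.04 and from nontransgenic glia by -0.26.

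Transcripts of the major histocompatibility complex (MHC) class I, which presents peptides of a cell's own proteins to T cells and natural killer cells, were lower in mutant glia at a few genes. Of 17 measured genes of presentation and peptide loading 5 fell, 0 rose and 12 did not pass, where 4.64% of all kept genes were lower and 3.83% higher. Of the 17 genes 6 lay below all controls (35.3%, against 6.88% of all genes outside either way), and the list's median log2 difference was -0.19, beside 0.005 over all kept genes. The list was chosen with earlier results of these data known. Whether fewer cells of a type or less RNA per cell lies behind a lower level cannot be told apart in cultures measured whole. Whether a fall belongs to the transcript or to 1 probe was not tested. The 5 genes that fell lie on chromosome 17, where 10.6% of kept genes had a probe set apart, against 2.46% over all chromosomes.

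H2-T23 encodes Qa-1, a nonclassical class I molecule read by the CD94/NKG2A receptor of natural killer cells. Its log2 intensity was 4.46, 4.72 and 4.30 on the SOD1-G93A arrays, against 8.94, 9.03 and 9.11 on the SOD1-WT and 8.81, 8.67 and 8.52 on the nontransgenic arrays. The groups were 3.80 apart at their nearest, and only 1 of 3 mutant arrays detected the probe. The fitted fall was 4.35 ± 0.10 (SE) against the mean of the controls (limma adjusted p = 7.42e-12, n = 3, 3 and 3), but with 2 mutant values not above background its size is not measured exactly.

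H2-T22, a nonclassical class I gene known in mice as a ligand of some gamma delta T cells, lies next to H2-T23 among the kept genes. It had 5.59, 6.08 and 5.80 in SOD1-G93A glia, against 8.59, 8.69 and 8.65 in SOD1-WT and 8.10, 8.10 and 8.03 in nontransgenic glia. Every mutant array was at least 1.95 below every control array, and the fall was 2.54 ± 0.10 (limma adjusted p = 1.77e-09). Its other probe fell by only 0.62 (adjusted p = 0.00685), a call lost with no filter on dim probes (0.051) and with the controls as 1 group (0.0866).

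Psmb9, an interferon-induced subunit of the immunoproteasome that makes peptides for class I, had 5.65, 6.23 and 5.77 in SOD1-G93A glia, against 7.82, 8.03 and 7.65 in SOD1-WT and 7.30, 7.49 and 7.28 in nontransgenic glia. All 3 mutant arrays were lower than all controls by at least 1.04, and the fall was 1.71 ± 0.13 (adjusted p = 1.1e-06 in limma). H2-T10 fell by 0.77 and H2-Q6 by 0.89 (adjusted p 2.45e-05 and 0.000215 in limma). The other kept probe of H2-Q6 gave 0.10 (adjusted p = 0.679) and overlapped the controls. Class I genes are near copies of each other, so a probe of H2-T22, H2-T10 or H2-Q6 may read more than 1 of them. The classical gene H2-K1 (-0.41, adjusted p = 0.146), the peptide transporter Tap1 (-0.33, adjusted p = 0.112) and the light chain B2m (-0.19, adjusted p = 0.301) did not pass, though B2m lay below all controls. Other members differed the other way without passing, namely Psmb8 (0.31), Tap2 (0.27), Psmb10 (0.12) and Erap1 (0.09).

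The promoters of 3 of these genes are shown because the 3 lie on chromosome 17 and are the largest falls of the list. The windows are from RefSeq (GRCm38.p6), run from 250 bases before to 50 after each gene's start, and all 3 genes are on the minus strand. Capitals mark a match to GAAA, 2 free bases and GAAA, a core of interferon-stimulated response elements, here read on the opposite strand of the printed sequence.
H2-T23 (chr17:36032652-36032951): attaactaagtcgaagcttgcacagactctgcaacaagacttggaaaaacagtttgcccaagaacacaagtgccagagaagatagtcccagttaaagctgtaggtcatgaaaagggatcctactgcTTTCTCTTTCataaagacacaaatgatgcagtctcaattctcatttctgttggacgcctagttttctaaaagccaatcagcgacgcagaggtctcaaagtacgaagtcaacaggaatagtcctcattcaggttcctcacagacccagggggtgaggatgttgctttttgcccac
H2-T22 (chr17:36042693-36042992): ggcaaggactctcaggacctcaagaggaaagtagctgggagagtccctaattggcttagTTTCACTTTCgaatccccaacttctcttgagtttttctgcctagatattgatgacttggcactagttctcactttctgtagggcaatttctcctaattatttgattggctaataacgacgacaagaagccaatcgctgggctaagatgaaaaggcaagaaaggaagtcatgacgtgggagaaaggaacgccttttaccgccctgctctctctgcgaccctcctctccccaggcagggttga
Psmb9 (chr17:34187281-34187580): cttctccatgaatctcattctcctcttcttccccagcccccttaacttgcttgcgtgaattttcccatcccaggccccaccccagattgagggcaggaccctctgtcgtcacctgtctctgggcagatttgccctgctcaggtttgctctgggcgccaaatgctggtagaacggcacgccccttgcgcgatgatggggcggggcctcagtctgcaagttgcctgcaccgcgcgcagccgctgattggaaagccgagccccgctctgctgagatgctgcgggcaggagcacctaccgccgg

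The match begins 124 bases before the start of H2-T23 and 191 before that of H2-T22, and the window of Psmb9 has none. In all, 8 motifs were searched on both strands, and this one was chosen for printing after its matches were seen. It occurs in 8 of 98 promoters of genes set apart and lower (8.16%), in 3 of 100 of genes set apart and higher (3.0%) and in 3.93% of the 7962 promoters of kept genes. TGACTCA was found in 10.2%, 11% and 4.95% of the same sets, and TATAAA in 8.16%, 19% and 10.3%. The shares were 46.9%, 41.0% and 42.7% for CCAAT, 33.7%, 27% and 30.1% for GGGA and CC with 4 free bases between them, and 64.3%, 51.0% and 66.2% for GGGCGG. They were 57.1%, 46.0% and 53.9% for GCGTG and 19.4%, 17% and 21.4% for GGTCCT. A match is a description of letters, not a site of binding.

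Other genes outside the list also had large falls. Abhd16a, a phospholipid lipase encoded among the MHC genes, had 4.34, 5.52 and 4.42 in SOD1-G93A glia, against 9.82, 9.77 and 9.77 in SOD1-WT and 8.69, 8.82 and 8.88 in nontransgenic glia. The mutant arrays lay at least 3.17 below any control and only 1 of them detected the probe. The fitted fall was 4.53 ± 0.20 (limma adjusted p = 3.92e-09), with the same limit on its size as for H2-T23.

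Pdrg1, a gene regulated by p53 and by DNA damage, had 4.31, 4.53 and 4.32 in SOD1-G93A glia, against 7.83, 7.95 and 8.39 in SOD1-WT and 8.92, 8.85 and 9.06 in nontransgenic glia. No mutant array detected it and every control array did. It was at least 14.8-fold lower than the mean of the controls (limma adjusted p = 4.53e-11), and at least 10.9-fold lower than SOD1-WT glia alone. The same pattern of detection held for the zinc finger gene Zfp960, which was at least 3.85-fold lower than the mean of the controls. It also held for Eif3j1, a translation initiation subunit, at least 3.55-fold lower, and for B3galt6, a galactosyltransferase of proteoglycan synthesis, at least 2.57-fold. These probes and that of Pdrg1 passed the detection filter through the control arrays alone. Neither this pattern nor the p-value is therefore support for a fall.

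Ndufb10, a subunit of respiratory complex I, had 7.41, 7.84 and 7.33 in SOD1-G93A glia, against 10.04, 10.04 and 9.69 in SOD1-WT and 9.32, 9.37 and 9.16 in nontransgenic glia. Every mutant array was at least 1.32 lower than every control, and the fall was 2.08 ± 0.12 (limma adjusted p = 1.1e-07). It was the only one of 41 measured genes of the respiratory chain and ATP synthase to pass, where 8.47% of all kept genes passed. The list's median was 0.02. Tfb1m, which methylates mitochondrial ribosomal RNA, fell by 1.81 (adjusted p = 3.71e-07). Rspo3, a secreted amplifier of Wnt signals, fell by 1.56, Guca1a, an activator of retinal guanylate cyclase, by 1.89, Agtrap, a partner of the angiotensin receptor, by 1.60, and Cops8, a COP9 signalosome subunit, by 1.38, each with an adjusted p of at most 6.86e-07 in limma.

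**Figure D2:**
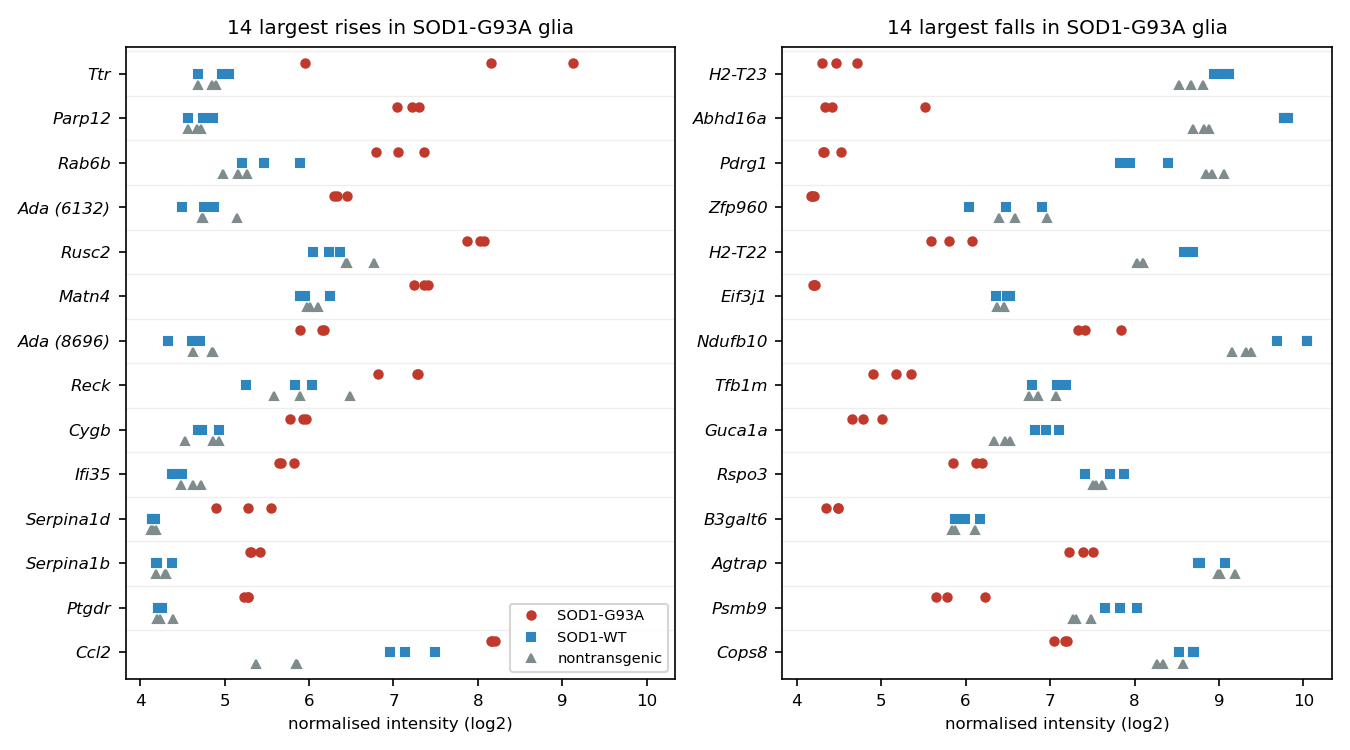
Normalised log2 intensity on each of the 9 arrays for the 14 probes with the largest rises (left) and the 14 with the largest falls (right) among probes set apart, ordered by the smaller of the differences from SOD1-WT and nontransgenic glia. Each point is 1 array, with SOD1-G93A as red circles, SOD1-WT as blue squares and nontransgenic as grey triangles. Digits after Ada tell its probes apart, and Ttr spreads from 5.95 to 9.12 over the mutant arrays.

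Among the rises, Parp12, an interferon-induced ADP-ribosyltransferase, had a large difference with a small spread. It had 7.05, 7.31 and 7.22 in SOD1-G93A glia, against 4.86, 4.75 and 4.57 in SOD1-WT and 4.56, 4.67 and 4.72 in nontransgenic glia. The mutant arrays lay at least 2.19 above all controls, of which 2 of 3 in each group detected it. It rose by 2.50 ± 0.09, 5.67-fold (limma adjusted p = 8.83e-10).

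Ttr, the thyroxine carrier of choroid plexus, had 9.12, 8.15 and 5.95 in SOD1-G93A glia, against 4.97, 5.05 and 4.68 in SOD1-WT and 4.90, 4.69 and 4.85 in nontransgenic glia. All 3 mutant arrays were higher than all controls, but they spread over more than 3 log2 units. It rose by 2.89 ± 0.45 (limma adjusted p = 0.000969). Among markers of ependyma and choroid plexus, 2 rose, Ttr included, 2 fell and 5 of 9 measured did not pass. Over all kept genes 3.83% rose and 4.64% fell. The medians of the markers were -0.20 against the mean of the controls, -0.89 against SOD1-WT and 0.54 against nontransgenic glia, so the mutant lay between controls that were far apart.

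Ada, adenosine deaminase, which removes extracellular and cellular adenosine, rose by both of its probes, 1.57 ± 0.11 and 1.41 ± 0.11 (limma adjusted p 8.82e-07 and 1.43e-06). The brighter had 6.45, 6.33 and 6.30 in SOD1-G93A glia, against 4.76, 4.50 and 4.88 in SOD1-WT and 4.73, 4.74 and 5.15 in nontransgenic glia. The groups did not overlap on either probe. Rab6b, a GTPase of Golgi traffic, rose by 1.74, Rusc2, a protein of vesicle transport, by 1.61, Reck, a membrane inhibitor of matrix metalloproteases, by 1.28 and Cygb, an oxygen-binding globin, by 1.11, each with an adjusted p of at most 0.000758.

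Matn4, a matrilin of the extracellular matrix, rose by 1.31 ± 0.09 (adjusted p = 8.82e-07 in limma) on 1 probe, but on a second probe it overlapped the controls and differed by 0.17 (adjusted p = 0.363). Probes named for Serpina1b and Serpina1d, genes of the alpha-1 antitrypsin family, were detected on all 3 mutant arrays and no control, at least 1.67-fold and at least 1.55-fold higher. They passed the detection filter through the mutant arrays alone, so this pattern is not support for a rise. These genes are near copies of each other, so their probes may not tell them apart.

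Where a gene had several kept probes, they could be set beside each other on the same 9 arrays. Of 282 pairs of probes with at least 1 outside the controls, each pair counted once, 219 (77.7%) had the same sign, against 62.4% of 2756 pairs with neither outside. Both probes were outside the same way in 41 of the 282 pairs and opposite ways in 0. The rule was applied to every kept probe, so these pairs are a description and not an independent reading. Ccl12, a monocyte chemokine, was set apart on 1 probe (2.95 against the mean of the controls) and gave 0.05 on its other.

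Interferon-induced genes did not move as a group. Of 25 measured, 2 rose (Parp12 and Ifi35), 1 fell (Stat2) and 22 did not pass, where 8.47% of all kept genes passed either way. The list's median was 0.07. Ifi35, an interferon-induced leucine zipper protein, had 5.67, 5.65 and 5.82 in SOD1-G93A glia, against 4.49, 4.38 and 4.43 in SOD1-WT and 4.63, 4.72 and 4.48 in nontransgenic glia. It rose by 1.19 ± 0.09 (limma adjusted p = 8.82e-07), and no SOD1-WT array detected it, giving at least 2.16-fold against that group. Stat2, a transducer of type I interferon signals, had 4.43, 4.58 and 4.75 in SOD1-G93A glia, against 5.16, 5.16 and 4.99 in SOD1-WT and 5.81, 5.87 and 6.0 in nontransgenic glia. All mutant arrays were lowest, 1 of them detected it, and the fall was 0.91 ± 0.09 (adjusted p = 2.54e-05), or 0.135 with the controls as 1 group.

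Several chemokines, which draw immune cells, were higher in mutant glia than in both controls. Of 28 measured cytokines and chemokines 12 rose against the mean of the controls, 1 fell and 15 did not pass, where 3.83% of all genes rose and 4.64% fell. For 2 of the 12, Cxcl10 and Cxcl12, the mutant mean lay between the control means. Of the 28, 7 lay above all controls and 1 below, where 6.88% of all kept genes were outside either way. The list's median was 0.32. Ccl2, which draws monocytes, had 8.21, 8.15 and 8.17 in SOD1-G93A glia, against 7.50, 7.14 and 6.96 in SOD1-WT and 5.37, 5.85 and 5.86 in nontransgenic glia. The mutant arrays were highest, SOD1-WT arrays were intermediate, and the 3 groups did not overlap. It rose by 1.73 ± 0.13 against the mean of the controls (limma adjusted p = 1.23e-06), by 0.98 against SOD1-WT and by 2.48 against nontransgenic glia, while with the controls as 1 group the adjusted p was 0.121.

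Ccl5, which attracts T cells, had 6.85, 6.96 and 6.72 in SOD1-G93A glia, against 6.02, 5.98 and 5.92 in SOD1-WT and 5.49, 6.13 and 6.0 in nontransgenic glia. The SOD1-WT arrays lay within the wider range of the nontransgenic arrays, all mutant arrays were above both, and the rise was 0.92 ± 0.12 (limma adjusted p = 0.000284). Ccl6, a macrophage chemokine of mice, rose by 0.93 (adjusted p = 0.000359). Il33, an alarmin of the interleukin family, was the member that fell, by 0.48 (adjusted p = 0.00154), with 0.458 when the controls were 1 group.

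All of the 6 factors and receptors that the study linked to mutant glia rose against the mean of the controls, and 4 were set apart. Over all kept genes 3.83% rose and 2.23% were set apart. The study chose the 6 factors and receptors on these samples, so they are not independent evidence of their direction. Ptgdr, a receptor for prostaglandin D2, had 5.28, 5.23 and 5.28 in SOD1-G93A glia, against 4.22, 4.26 and 4.22 in SOD1-WT and 4.24, 4.39 and 4.20 in nontransgenic glia. It was detected on all mutant arrays and on no control, at least 1.58-fold higher (limma adjusted p = 1.96e-06). Ptgdr passed the detection filter through the mutant arrays alone, so neither this pattern nor its p-value is support for a rise.

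Ccl8, a monocyte chemokine, had 7.0, 6.93 and 6.84 in SOD1-G93A glia, against 6.69, 5.82 and 6.20 in SOD1-WT and 5.46, 5.80 and 6.02 in nontransgenic glia. It rose by 0.93 ± 0.16 (limma adjusted p = 0.00218), and Shh, a secreted morphogen, rose by 0.66 ± 0.10 (adjusted p = 0.000657) with a gap of 0.05 to the nearest control. With the controls as 1 group the adjusted p was 0.0975 for Ccl8 and 0.187 for Shh.

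Ppbp, a platelet chemokine, and Gmfb, a glia maturation factor, overlapped the SOD1-WT arrays and differed from SOD1-WT glia by 0.13 (limma adjusted p = 0.756) and 0.17 (adjusted p = 0.509). Against the mean of the controls Ppbp rose by 0.62 (adjusted p = 0.046), a call lost without nontransgenic replicate 1 (0.0921), 2 (0.0638) or 3 (0.0642) or SOD1-G93A replicate 1 (0.251) or 2 (0.156). It was also lost with normexp (0.0878), the authors' table (0.0812), no filter (0.206) and the controls as 1 group (0.657), and it was at the threshold with probes detected on all 9 arrays (0.05). Gmfb rose by 0.46 (adjusted p = 0.0343), a call lost without nontransgenic replicate 1 (0.0698) or 3 (0.0632) or SOD1-G93A replicate 1 (0.15) or 2 (0.189), and with normexp (0.0976), the authors' table (0.0646), no filter (0.12) and the controls as 1 group (0.535).

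Some enzymes of sugar breakdown were lower. Of 16 measured genes of glycolysis and the pentose phosphate pathway 5 fell, 0 rose and 11 did not pass, where 4.64% of all genes fell. The call of 1 of the 5, Aldoa, was lost in several alternatives, with the controls as 1 group (adjusted p = 0.286) and without SOD1-G93A replicate 1 (0.22) among them. Of the 16, 4 lay below all controls, where 6.88% of all kept genes were outside either way. The list's median was -0.18. Taldo1, the transaldolase of the pentose phosphate pathway, had 8.36, 8.33 and 8.46 in SOD1-G93A glia, against 9.07, 9.30 and 9.23 in SOD1-WT and 10.92, 10.69 and 10.63 in nontransgenic glia. The mutant arrays were lowest and nontransgenic arrays highest, with no overlap. It fell by 1.59 ± 0.09 (limma adjusted p = 1.05e-07), or with an adjusted p of 0.172 when the controls were 1 group.

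Rpe, the epimerase of the same pathway, had 5.83, 6.40 and 5.68 in SOD1-G93A glia, against 6.97, 6.98 and 6.64 in SOD1-WT and 6.83, 6.92 and 6.92 in nontransgenic glia. Here the control groups overlapped, and the fall was 0.91 ± 0.14 (limma adjusted p = 0.000778). Gapdh (-0.13, adjusted p = 0.545) and Pkm (-0.12, adjusted p = 0.75) did not pass.

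Against the mean of the controls, markers of cell types did not move as whole lists, with the exception of those of fibroblasts and meninges. That list did not move 1 way against both controls, with medians of 2.26 against SOD1-WT and -0.26 against nontransgenic glia. Of 14 measured microglial and macrophage markers 1 rose, 1 fell and 12 did not pass, where 3.83% of all kept genes rose and 4.64% fell. The median was 0.05. Fcer1g, the signalling chain of activating Fc receptors, had 11.68, 11.60 and 11.54 in SOD1-G93A glia, against 10.64, 10.59 and 10.94 in SOD1-WT and 10.50, 10.53 and 10.83 in nontransgenic glia. All mutant arrays were above all controls, and it rose by 0.94 ± 0.10 (limma adjusted p = 5.31e-05). Fcgr3, an Fc receptor that signals through it, lay below all controls instead, by 0.93 ± 0.12 (adjusted p = 0.000232), a gene named after its values were seen. Trem2, a lipid receptor of microglia, fell by 0.53 (adjusted p = 0.0266), with adjusted p of 0.0853 and 0.166 when SOD1-G93A replicates 1 and 3 were left out, and of 0.0543 and 0.0523 when SOD1-WT replicates 1 and 2 were left out. The call was also lost with no filter (0.12) and with the controls as 1 group (0.193).

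Of 9 measured oligodendrocyte lineage markers 3 were higher against the mean of the controls, where 3.83% of all genes were, and 6 did not pass. Of the 3, Pdgfra was lower than in nontransgenic glia (-0.58, limma adjusted p = 0.00828), and the calls of Pdgfra and Olig1 were lost in several alternatives, both with the controls as 1 group (adjusted p 0.917 and 0.355) and without SOD1-G93A replicate 1 (0.115 and 0.139). Sox10, a transcription factor of that lineage, had 6.21, 5.99 and 6.04 in SOD1-G93A glia, against 5.25, 5.33 and 5.28 in SOD1-WT and 5.52, 5.36 and 5.52 in nontransgenic glia. All mutant arrays were higher, and the rise was 0.70 ± 0.08 (limma adjusted p = 9.65e-05). Neuronal markers gave 0 of 8 past the threshold, endothelial markers 1 higher and 1 lower of 7, and of the erythroid list 0 were measured.

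Fibroblast and meningeal markers had lower levels in SOD1-WT glia, by the list's medians, than in both other groups. Of 13 measured, 12 rose against the mean of the controls, where 3.83% of all kept genes did. For 9 of the 12 the mutant mean lay between the control means. Only 2 of the 13 lay above all controls, where 6.88% of all kept genes were outside either way. The list's median was 0.86 against the mean of the controls, 2.26 against SOD1-WT and -0.26 against nontransgenic glia. The meninges had been stripped from the tissue, per the labels, and the part of differing numbers of such cells in these values was not tested. Lum, a proteoglycan of collagen fibrils, had 8.15, 8.09 and 8.16 in SOD1-G93A glia, against 4.63, 4.34 and 4.32 in SOD1-WT and 7.27, 7.41 and 7.36 in nontransgenic glia. Mutant arrays were highest and SOD1-WT arrays far below the rest. It rose by 0.79 against nontransgenic (limma adjusted p = 0.000187) and by 3.71 against SOD1-WT glia (adjusted p = 2.8e-11). Col1a2, a chain of type I collagen, rose by 0.86 and 1.89 in the same order (adjusted p 0.000323 and 9.85e-08 in limma), with 1 of 3 SOD1-WT arrays detecting either gene. With the controls as 1 group the adjusted p was 0.354 for Lum and 0.0717 for Col1a2.

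The matrix list followed a like course, where 9 of 27 genes rose, 3 fell and 15 did not pass, against 3.83% higher and 4.64% lower over all kept genes. The mutant mean lay between the control means for 4 of the 12. Of the 27, 7 lay above all controls and 1 below, where 6.88% of all kept genes were outside either way. The list's median was 0.22 against the mean of the controls, 0.45 against SOD1-WT and -0.05 against nontransgenic glia. Ccn2, a matricellular growth factor, rose by 1.10 (limma adjusted p = 9.66e-05), with 0.241 when the controls were 1 group.

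Mouse counterparts of ALS genes gave 2 higher, 1 lower and 11 not past of 14, where 8.47% of all kept genes passed either way. For 1 of the 2 higher, Ang, the mutant mean lay between the control means. Vcp, a segregase of ubiquitin-tagged proteins, had 11.04, 11.03 and 11.19 in SOD1-G93A glia, against 10.63, 10.73 and 10.66 in SOD1-WT and 10.61, 10.65 and 10.68 in nontransgenic glia. All mutant arrays lay above a narrow range of controls, and the rise was 0.43 ± 0.08 (limma adjusted p = 0.00375). Tardbp (-0.06, adjusted p = 0.851) and Sqstm1 (0.07, adjusted p = 0.809) did not pass.

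Trophic factors gave 5 higher (21.7%) and 0 lower of 23, where 8.47% of all genes passed either way. For 2 of these 5, Bmp4 and Igf2, the mutant mean lay between the control means, and Shh alone of the 5 lay above all controls. The prostaglandin pathway gave 2 higher and 0 lower of 14, and cell cycle and mitosis 1 and 2 of 23, where Bub1b, a spindle checkpoint kinase, fell by 0.67 (limma adjusted p = 0.0054, or 0.0697 with the controls as 1 group). The proteasome gave 0 and 1 of 32, the unfolded protein and heat shock list 0 and 1 of 16, oxidative stress and NRF2 1 and 1 of 20, and coenzyme Q synthesis 1 and 0 of 8. Glutamate and potassium handling gave 1 and 0 of 8, and cholesterol synthesis (15 genes) and lysosome and cathepsins (18) gave 0 either way.

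**Figure D3:**
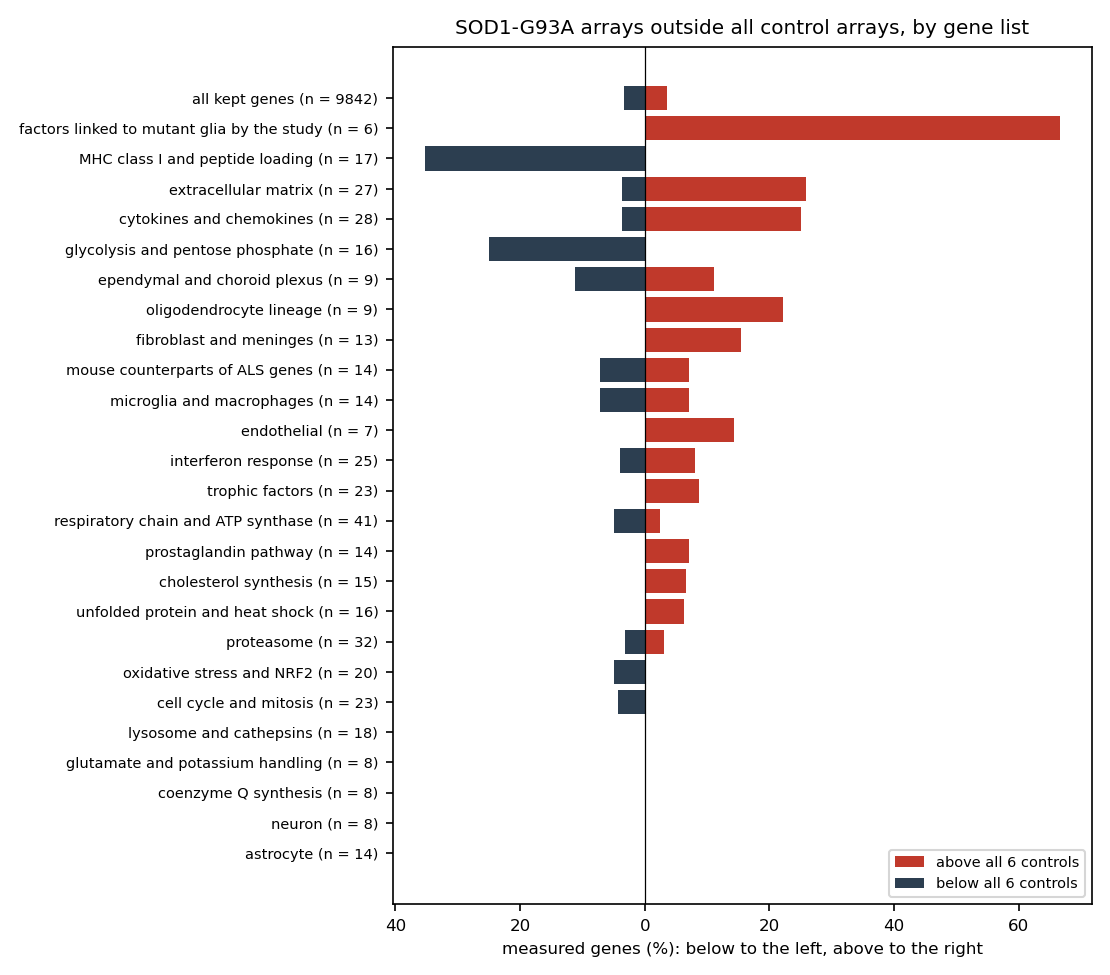
Share of the measured genes of each list whose 3 SOD1-G93A arrays lay below (dark bars, to the left) or above (red bars, to the right) all 6 control arrays, with all 9842 kept genes at the top. The factors linked to mutant glia by the study reach 66.7% above, and MHC class I and peptide loading 35.3% below.

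By position, the genes that set the mutant apart were unevenly spread, a description made after the values were seen. A gene counts here if any of its kept probes does. Chromosome 17 held 463 kept genes (4.71% of all), and 88 of them (19%) had a probe outside the controls, against 7.80% over all chromosomes. There 49 genes (10.6%, against 2.46%) were set apart, 38 lower and 11 higher, and these 38 made up 33.3% of the 114 genes set apart and lower on all chromosomes. Of the 31 genes that differed at least 2-fold from both controls 11 were on chromosome 17. Chromosome 1 came next by share, with 35 of 514 kept genes set apart (6.81%), 21 higher and 14 lower. On chromosome 2, 25 of 795 (3.14%) were set apart. The control groups differed from each other on 25.6% of the probes of chromosome 17 and on 25.5% over all chromosomes.

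**Figure D4:**
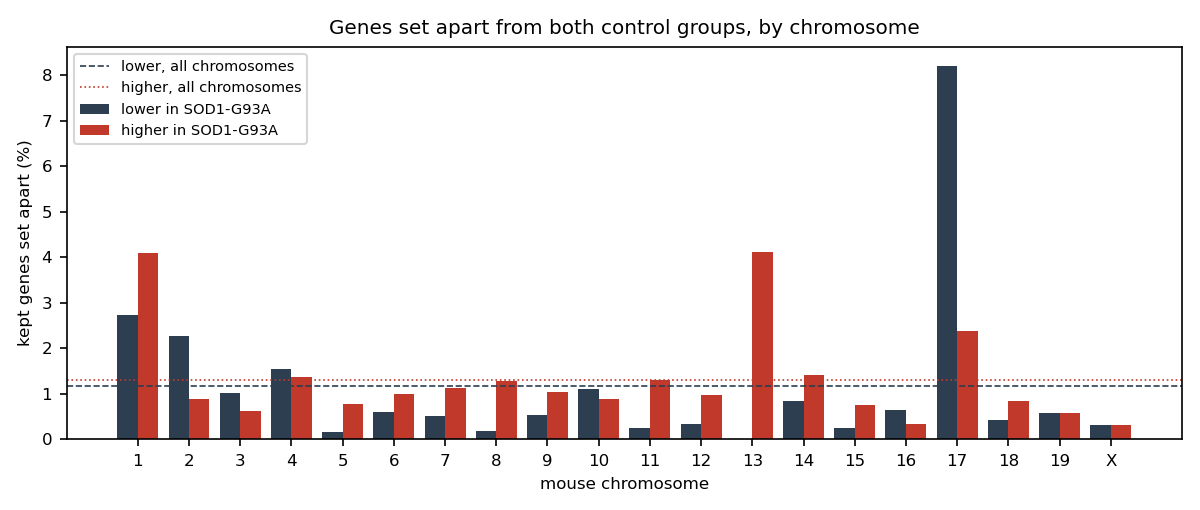
Share of kept genes on each mouse chromosome that were set apart, lower (dark bars) or higher (red bars) in SOD1-G93A glia, with lines at the shares over all chromosomes. Chromosome 17 reaches 8.21% lower, and chromosome 13 has 4.11% higher and 0 lower.

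The lower genes of chromosome 17 were not all of the MHC. They ran from Tfb1m through Zfp960, Ndufb10, Vps52, Psmb9, Abhd16a and the H2-T genes to Guca1a. Vps52, a tethering subunit of endosome to Golgi traffic, had 4.36, 4.52 and 4.25 in SOD1-G93A glia, against 5.99, 6.09 and 6.43 in SOD1-WT and 5.47, 5.51 and 5.87 in nontransgenic glia. No mutant array detected it, and it was at least 2.42-fold lower, but its other probe gave -0.08 (adjusted p = 0.748) and overlapped the controls. Wdr46, a nucleolar protein of ribosome assembly, was likewise not detected on any mutant array and at least 2.25-fold lower. These probes of Vps52 and Wdr46 passed the detection filter through the control arrays alone, so this pattern is not support for a fall. Med20, a Mediator subunit, fell by 1.23 (limma adjusted p = 9.98e-05). Other kept probes of Rpl7l1 (-0.10), Mrps10 (0.06 and -0.05) and Mad2l1bp (-0.12), also set apart and lower there, overlapped the controls. Those of H2-T22 (-0.62) and H2-T9 (-0.44) lay below all controls. Whether a fall belongs to the transcript or to 1 probe was not tested. Over blocks of 50 neighbouring kept genes, 87 of 187 full blocks held no gene set apart and the median was 1. Of 7 blocks with 8 or more, 5 were among the 9 full blocks of chromosome 17. Across all alternatives that gave a value, 28 to 42 genes of chromosome 17 were set apart and lower.

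**Figure D5:**
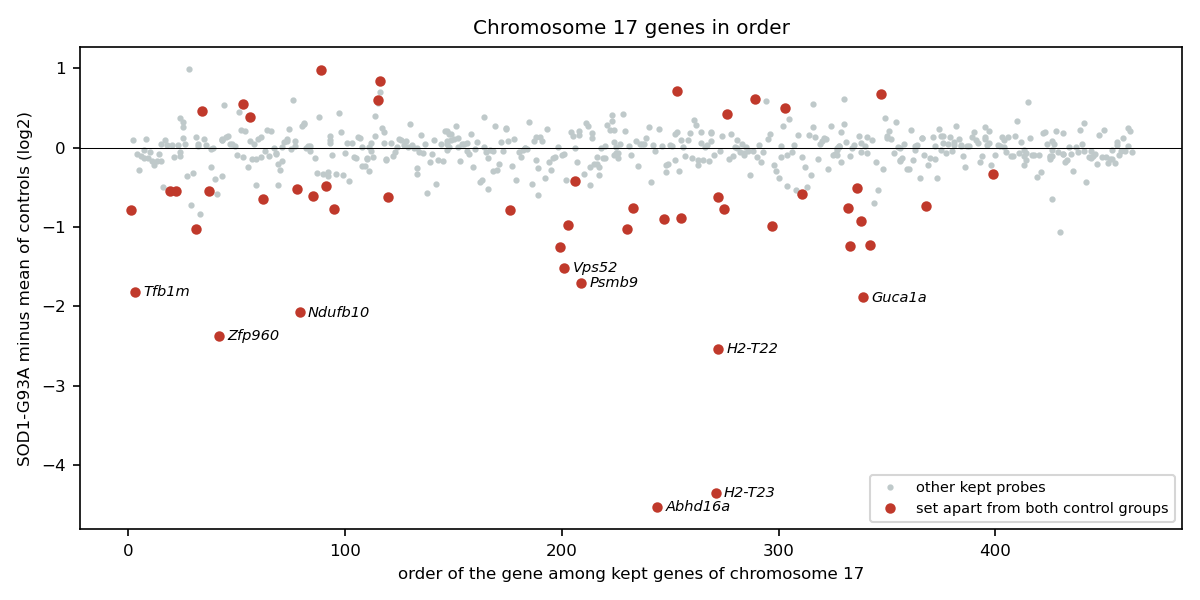
Log2 difference of SOD1-G93A glia from the mean of both control groups for each kept probe of chromosome 17, in the order of the genes along the chromosome and not to distance. Probes set apart (red) are found from the first genes to beyond Guca1a, with Abhd16a at -4.53 and H2-T23 at -4.35.

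On chromosome 13 all 14 genes set apart were higher, and all but Fgf10 and Foxq1 were histone genes, whose transcripts make the proteins that package DNA. This grouping too was made after the values were seen. Of 40 kept histone probes 20 lay above all controls and 0 below, against 3.51% and 2.99% of all kept probes. Of the 40, 35 had a positive difference, and the median was 0.33. The H4 probes of chromosome 13 differed most, with 9 of 10 above all controls, 9 past the test and differences of 0.33 to 0.81. Past the test and higher were 3 of 6 H3, 2 of 10 H2A and 1 of 14 H2B probes, against 3.59% of all kept probes. H4c12 had 8.11, 8.11 and 8.19 in SOD1-G93A glia, against 7.48, 7.57 and 7.37 in SOD1-WT and 7.13, 7.14 and 7.34 in nontransgenic glia. The mutant arrays were higher than all controls, and the rise was 0.80 (limma adjusted p = 3.9e-05). Histone genes of a class are near copies, so these probes may read shared transcripts and are not independent. Across alternatives that gave a value, 8 to 10 of the H4 probes lay above all controls.

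Elsewhere, genes outside the controls stood next to each other among kept genes in 85 runs of at least 2, of which 13 had at least 3 and 1 had 4. Chromosome 1 held 3 runs of 3. Ptpn7, Gpr37l1 and Rnpep were higher, as were Apoa2, Fcer1g and Adamts4, while Marco and En1 were higher beside a lower Insig2. The run of 4 was H4c11, H4c12, H2bc15 and H3c11 on chromosome 13. The largest rise of all, 5.44 against the mean of the controls, was on a probe without a gene symbol in the annotation used here.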

How the data were processed

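The deposited raw table gives a mean bead intensity and a detection p-value per probe and array, per the file headers, and the arrays were processed in BeadStudio, per the submitters' processing notes. No background subtraction was seen in these values. The authors' normalised intensity table served as an alternative, with 26.1 added before log2. Raw intensities were normalised with neqc (limma 3.58.1, R 4.3.3), which infers background from the detection p-values, adds 16, scales by quantiles and takes log2. A single limma fit of 3 groups used all 9 arrays, with two-sided moderated tests and Benjamini-Hochberg adjustment over kept probes (threshold 0.05). Differences are log2, mutant minus control, with SE. Of 24613 probes, 20984 carried 1 gene symbol, 1 carried several and 3628 none in the platform annotation. Symbols and gene order came from a RefSeq listing (GRCm38.p6; 20968 probes by gene identifier, 8 by accession, 7 symbols updated). In lists, each gene was represented by its brightest kept probe on average, and lists were not tested.

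Named genes were the 14 largest rises and falls among probes set apart, ranked by the smaller of the 2 single differences, up to 4 genes of each list, and fixed genes. Members, lists and rules were chosen with earlier results of these data known, and other genes, the positional and histone groupings and the motif after their values were seen. Pairing of samples by replicate number was not shown (correlations of deviations -0.021 to 0.153). The fit was also run on simulated data, with noise drawn separately for each array and shifts added to mutant arrays. Such data cannot show how shared litters or cultures, or faults of single probes, affect the results. Alternatives were other background corrections, normalisations, filters and variance models, a replicate block, array weights, controls as 1 group, and leaving out each array.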

Additional observations from a re-analysis of the deposited data

How the results depend on the processing

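The count outside the controls was 761 to 1178 over other normalisations and filters, and 1025 to 1438 with 1 array left out, where fewer arrays have to be cleared. The count past the test against the mean of the controls was 828 to 1468 over those alternatives and other variance models, 141 with the controls as 1 group, and 645 to 1163 with 1 array left out. Set apart were 218 to 364, and 188 to 320 with 1 array left out. SOD1-G93A arrays moved these counts by over 1.5 times. Without replicate 1 they were 1367, 645 and 188, without replicate 2 the count outside was 1415, and without replicate 3 they were 1438, 693 and 189. Of the 294 probes, 210 to 292 were set apart again with all arrays and 176 to 263 with 1 left out. With the controls as 1 group the count set apart was not defined. Median scaling gave 39.5% of the calls as higher, against 46.4%.

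The replicate block gave 1084 probes past the test and 301 set apart, of which 282 were among the 294. Pairing by replicate number was not shown, and a weak pairing is not excluded: 3 of 9 pairs had a correlation of deviations over 0.1, and 5 of 9 arrays matched their own number best.

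Of 100 named probes 70 passed the test. All 70 kept their sign in every alternative that gave a value for them, and 36 passed in every such one. Filters dropped some probes in some alternatives. Agtrap had a value in 20 alternatives, but Pdrg1 in 19 and Ptgdr in 16. The sign turned for 4 probes, 0 of which passed the test on either side of the turn. Sod1 gave -0.057 by median scaling, -0.004 with the authors' table, and -0.0471 to 0.0569 with 1 array left out. C1qc gave -0.1293 to 0.0275 and a probe of Lyz2 -0.0245 to 0.1645 with 1 array left out, and the other probe of Lyz2 gave -0.0334 by median scaling. The medians of 11 of 26 lists changed sign in some alternative. The cause of these changes was not tested. With 3 arrays a group, small differences are not resolved.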
